A study of Mus musculus with 2 samples.

Results

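Chaperones of the endoplasmic reticulum (ER) were measured in the adult mouse pancreas through 10 genes, namely Hspa5, Hsp90b1, Canx, Calr, Dnajb9, Dnajb11, Dnajc3, Hyou1, Sdf2l1 and Creld2. Every probe set annotated to any of them was taken, which gave 23 of the 45101 probe sets on the array, for 10 of 18193 named genes. A probe set is the group of short oligonucleotides with which an Affymetrix array reads the 3' part of a transcript. The genes were chosen by their function and selected on their log2 differences between these same arrays, known from earlier results, so their differences are given as a description without a test.

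Pancreas RNA came from male C57BL/6J offspring at 10 weeks of age, the inbred strain used on both sides of the comparison. The control group had mothers on control diet in pregnancy, and the methionine-deficient group had mothers on a methionine-deficient diet, while all offspring received control diet from weaning at 3 weeks. Within a group all RNA went into a single pool that was read on 1 array, so the groups had n = 1 and no spread between animals could be measured. How many animals and litters stood behind a pool is not stated in the labels. The comparison asks whether chaperone transcripts of the adult pancreas differ after the maternal diet.

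Proteins that are secreted fold inside the ER, and the acinar cell of the pancreas is among the cells with the most ER because it makes digestive enzymes in bulk. Hspa5, also called BiP, binds and releases unfolded chains in a cycle driven by ATP. J-domain partners start its ATP hydrolysis and exchange factors help it exchange nucleotide, while calnexin and calreticulin hold glycoproteins by their sugars. When unfolded protein builds up, the sensors Atf6, Ern1 and Eif2ak3 raise transcription of these chaperone genes, in part through a promoter sequence called the ER stress response element (ERSE).

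The pooled tissue carried the transcripts of pancreas, such as the chymotrypsin-like enzyme gene Ctrl at intensities of 137654 in control and 126396 in methionine-deficient RNA. The 24 measured acinar markers had a median log2 difference of -0.013 with 12 lower and 12 higher. That median turned positive when the arrays were scaled to the hybridization controls. Their summed intensities were 3496048 in control and 3453561 in methionine-deficient RNA. Most acinar markers lay towards the highest intensities of the arrays, 263446 and 266191. Differences were narrower there, with 5th to 95th percentiles of -0.134 to 0.201 around an intensity of 63311 and -0.315 to 0.229 around 16303. Whether such high intensities still follow the amount of RNA was not tested. The islet list had 13 measured genes with a median of -0.054. All differences are of log2(intensity + 1), methionine-deficient minus control. Probe sets were kept where their mean level reached the median of the array, an intensity of 150, which all 23 chaperone probe sets did, leaving 22519 probe sets in all. The error given with a single difference is the probe-set spread, a robust SD taken from how far probe sets of 1 gene and of like level disagree, which leaves out the variation of mice and arrays. It was 0.18 in the brightest 20% of the probe sets kept, where 21 of the 23 lay, and 0.46 in the middle 20%, which held the other two.

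To show which chaperone genes carry the regulatory sequence their pathway is known for, promoters from RefSeq (mouse build GRCm38.p6, 250 bases before to 50 bases after each annotated start) were searched on both strands for the ERSE, spelled CCAAT, then 9 bases of any kind, then CCACG. Of the 10 genes, 9 had a promoter in the table, all but Hyou1. An exact match stood in 6 of these 9, those of Hspa5, Hsp90b1, Canx, Calr, Dnajc3 and Creld2, against 39 of all 32851 promoters, or 0.119%. The first count is of genes and the second of promoters, of which a gene can have several, and the 39 belonged to 37 genes. Because the element was picked as one known from this pathway, these counts are a description and no test. The matches follow, with 5 flanking bases on each side, written 5′ to 3′ on the strand of the gene, which is given as + or -, with the matched stretch in capitals. Those of Calr and Creld2 and the nearer one of Hsp90b1 read in the opposite direction and so begin with CGTGG.
Hspa5, chr2:34772020-34772048 (+), 65 to 47 bases before the start: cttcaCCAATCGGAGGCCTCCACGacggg
Canx, chr11:50325795-50325823 (-), 145 to 127 bases before the start: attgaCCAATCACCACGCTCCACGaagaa
Dnajc3, chr14:118937822-118937850 (+), 105 to 87 bases before the start: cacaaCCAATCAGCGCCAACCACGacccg
Hsp90b1, chr10:86705633-86705661 (-), 212 to 194 bases before the start: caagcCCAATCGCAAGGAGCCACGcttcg
Hsp90b1, chr10:86705528-86705556 (-), 107 to 89 bases before the start: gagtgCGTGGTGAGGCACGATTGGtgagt
Calr, chr8:84847070-84847098 (-), 162 to 144 bases before the start: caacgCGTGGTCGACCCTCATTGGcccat
Creld2, chr15:88819515-88819543 (+), 126 to 108 bases before the start: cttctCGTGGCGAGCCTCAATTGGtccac

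Dnajb11 had no ERSE in its window but an exact match to a second element, ERSE-II, spelled ATTGG, then 1 base of any kind, then CCACG, which stood in 12 of all promoters, or 0.0365%. It lay 7 to 17 bases after the annotated start, at chr16:22857847-22857867 (+) with its flanks, and is shown because it was the only exact ERSE-II among the chaperone genes in the table: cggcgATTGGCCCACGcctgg. The promoter windows of Dnajb9 and Sdf2l1 held neither element exactly. With 1 mismatch allowed, ERSE-II also matched in Hspa5, Creld2 and Sdf2l1, but so did 1.16% of all promoters. The match in Creld2 overlapped its ERSE. The 120 bases that end just before the start of Hspa5, chr2:34771970-34772089 on the forward strand, are shown with the ERSE in capitals to give its setting between further upstream sequence and the start: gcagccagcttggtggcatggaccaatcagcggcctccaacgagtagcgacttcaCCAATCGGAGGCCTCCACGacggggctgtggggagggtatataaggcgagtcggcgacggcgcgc. A match is a description of these letters and does not show that a factor bound there.

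In the methionine-deficient pool 20 of the 23 chaperone probe sets were lower and 3 were higher. By the brightest probe set of each gene 9 of 10 genes were lower, with a median log2 difference of -0.32, and Dnajb9 was the only higher one. That median depended on how a gene was read, with -0.17 for the mean over its probe sets, -0.10 for the second brightest probe set of the 6 genes that had one, and -0.061 for the 7 genes with plain _at probe sets. Among all genes 50% were lower by this measure, and among those in the brightest 20% it was 55.3%. Over all 23 probe sets the median was -0.19 and the range ran from -0.52 to 0.35. Among all 22519 probe sets kept, 49.2% were lower with a median of 0.0067, and in the brightest 20% 53.8% were lower with a median of -0.016. Of the chaperone probe sets, 10 were at least 1.2-fold lower and 2 at least 1.2-fold higher, where the brightest 20% had 10.8% and 9.26% and all probe sets kept had 24.6% and 26.8%. None of the 23 reached 1.5-fold, a size that 1.09% of the brightest 20% passed on the lower side. In pooled tissue RNA, fewer cells that make a transcript and less of it per cell cannot be told apart.

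**Figure D1:**
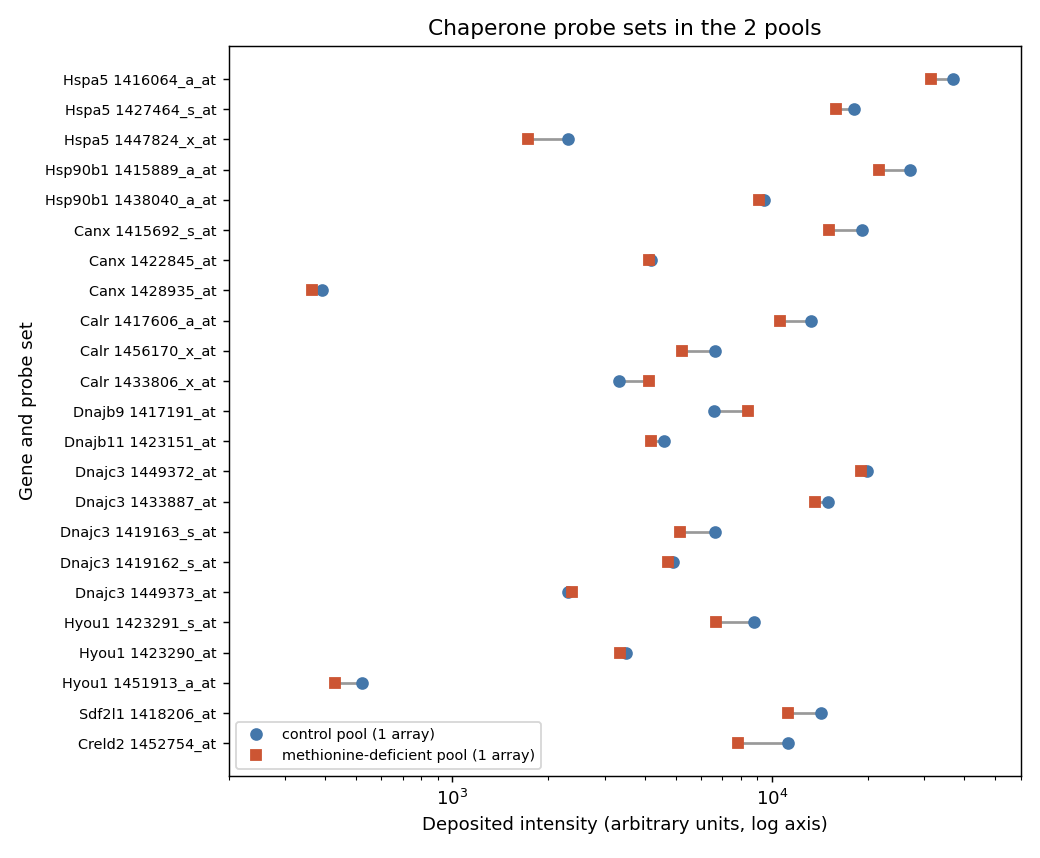
Deposited intensity (log axis) of each of the 23 chaperone probe sets in the control pool (blue circles) and the methionine-deficient pool (orange squares), 1 array each, joined by a line for each probe set. The orange square lies left of the blue circle in 20 of 23 rows, and to the right for Dnajb9, 1433806_x_at of Calr and 1449373_at of Dnajc3.

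Hspa5 is the central Hsp70 chaperone of the ER. Its probe set 1416064_a_at had intensities of 37003 in control and 31506 in methionine-deficient RNA, 1.17-fold lower (log2 difference -0.23, probe-set spread 0.18). Probe set 1427464_s_at had 18077 and 15828, and 1447824_x_at had 2305 and 1727 (log2 difference -0.42). All 3 probe sets were thus lower by more than the probe-set spread, between -0.42 and -0.19, with a mean of -0.28 and an SD between probe sets of 0.12. The -0.19 of 1427464_s_at was only just past it, and lay within the spread of 0.21 found with 3 level bins. The suffixes of all 3 mark probe sets that can bind several transcripts.

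The J-domain proteins, which bring clients to Hspa5 and start its ATP hydrolysis, did not share a direction. Dnajb9, also called ERdj4, is a partner of Hspa5 in handling misfolded proteins and represses the sensor Ern1. Its single probe set 1417191_at had intensities of 6610 in control and 8402 in methionine-deficient RNA, 1.27-fold higher (log2 difference 0.35, probe-set spread 0.18). Dnajb11, also called ERdj3, binds nascent chains ahead of Hspa5, and its single probe set 1423151_at had 4598 and 4188, a log2 difference of -0.13 within the probe-set spread. The directions of Dnajb9 and Dnajb11 each rest on 1 probe set.

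Dnajc3, also called p58IPK, is a further J-domain protein of the ER and an inhibitor of the kinase Eif2ak3. It had the most probe sets, 5, of which 4 were lower. The brightest, 1449372_at, had 19806 in control and 19066 in methionine-deficient RNA (log2 difference -0.055), and 1433887_at had 14945 and 13650 (-0.13). Probe set 1419163_s_at had 6655 and 5165 (-0.37), the only one of the 5 beyond the probe-set spread. The remaining pair were close between the pools, with 4912 and 4747 for 1419162_s_at and 2309 and 2371 for 1449373_at (0.038). The SD between its probe sets was 0.15, larger than the size of their mean of -0.11.

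Hyou1, the large Hsp70 relative GRP170 that helps Hspa5 exchange nucleotide, was lower in all 3 probe sets, but only 1 lay beyond the probe-set spread. That one, 1423291_s_at, had 8789 in control and 6669 in methionine-deficient RNA, 1.32-fold lower (log2 difference -0.40). Probe set 1423290_at had 3495 and 3350 (-0.061). The dim 1451913_a_at had 521 and 429, a log2 difference of -0.28 beside a probe-set spread of 0.46.

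Sdf2l1 forms a complex with Dnajb11 and keeps unfolded clients soluble. Its single probe set 1418206_at had 14249 in control and 11270 in methionine-deficient RNA, 1.26-fold lower (log2 difference -0.34). Creld2, a cysteine-rich ER protein induced by ER stress, showed the largest difference of the 10 genes. Its single probe set 1452754_at had 11208 and 7820, 1.43-fold lower (log2 difference -0.52). Both differences exceeded the probe-set spread of 0.18, and neither gene had a second probe set against which to set it. Sdf2l1 and Creld2 were both read by probe sets with the plain _at suffix.

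**Figure D2:**
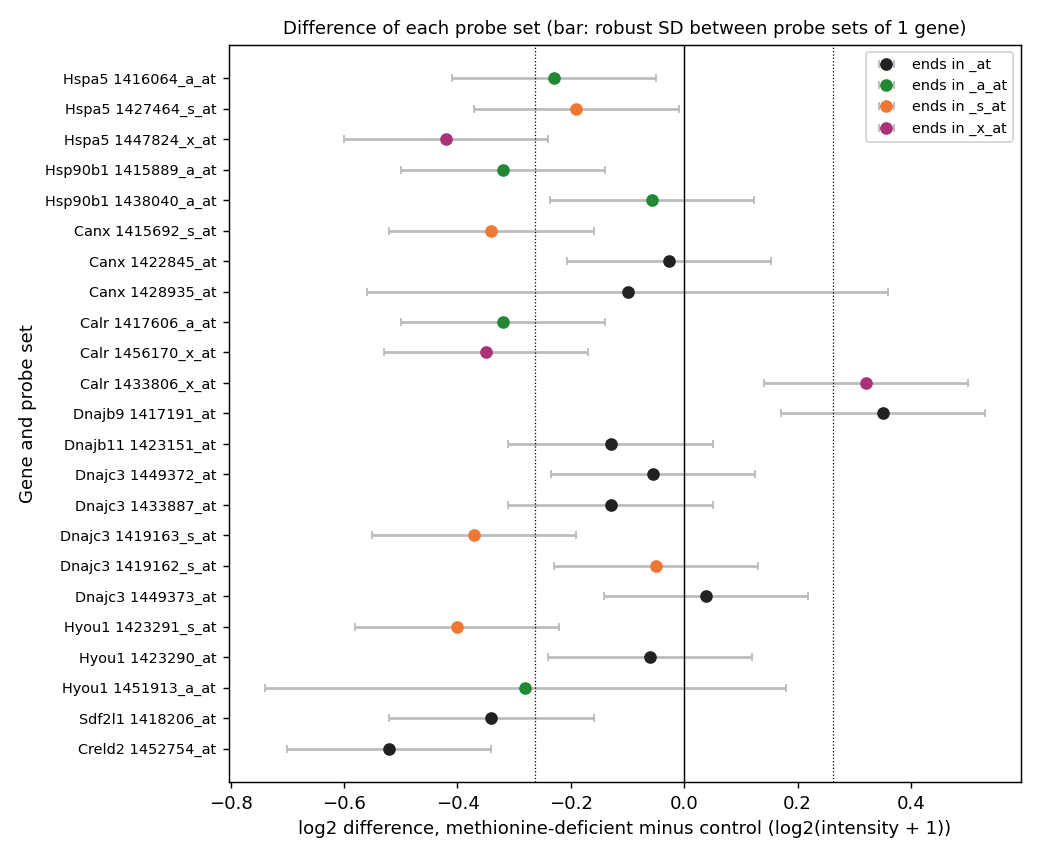
Log2 difference (methionine-deficient minus control) of each chaperone probe set, with a bar of 1 probe-set spread on each side and the colour giving the suffix of the probe set. Dotted lines mark 1.2-fold, and 10 probe sets lie beyond the left line and 2 beyond the right one.

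Hsp90b1 encodes GRP94, the Hsp90 chaperone of the ER. Its probe set 1415889_a_at had 27064 in control and 21690 in methionine-deficient RNA, 1.25-fold lower (log2 difference -0.32). Its other probe set, 1438040_a_at, had 9479 and 9111 (-0.057). Both were lower, and only the brighter one lay beyond the spread.

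The lectin chaperones calnexin (Canx) and calreticulin (Calr) bind newly made glycoproteins together with the disulfide isomerase Pdia3. The brightest probe set of Canx, 1415692_s_at, had 19156 in control and 15121 in methionine-deficient RNA, 1.27-fold lower (log2 difference -0.34). Its other probe sets were nearer to 0, with 4193 and 4116 for 1422845_at (-0.027) and 391 and 365 for 1428935_at (-0.10).

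Calr was the gene whose probe sets disagreed most, with an SD between them of 0.37. Probe set 1417606_a_at had 13229 in control and 10631 in methionine-deficient RNA (log2 difference -0.32), and 1456170_x_at had 6647 and 5228 (-0.35). The third, 1433806_x_at, went the other way with 3316 and 4130 (0.32). The suffix _x_at marks probe sets with oligonucleotides that can bind unrelated transcripts, and the 2 probe sets of Calr that carry it had opposite signs. The direction of Calr is given as uncertain.

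Among the 6 genes with several probe sets, 4 were lower in all of them, namely Hspa5, Hsp90b1, Canx and Hyou1. Of all 4819 genes with at least 2 probe sets kept, 19.5% were lower in all, and of 1901 genes with at least 3 it was 10%. Of the 23 probe sets, 11 were lower by more than the probe-set spread, 2 were higher by more than it and 10 lay within it. In the brightest 20% as a whole, 19.7% were lower and 15.3% higher by more than the spread.

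The kinds of probe set gave differences of unlike size. The 10 chaperone probe sets with the plain _at suffix had a median log2 difference of -0.08 with 8 lower, while the 13 with _a_at, _s_at or _x_at, which can bind several transcripts of a gene or of several genes, had a median of -0.32 with 12 lower. In the brightest 20% of the array the same kinds had medians of -0.032 and 0.0016. Only Creld2 and Sdf2l1 were at least 1.2-fold lower in a plain _at probe set. Hspa5, Hsp90b1 and Calr had no plain _at probe set, so for them the kinds cannot be compared. With plain _at probe sets alone, 6 of the 7 genes that had one were lower. The part of shared probe binding in these differences was not tested.

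**Figure D3:**
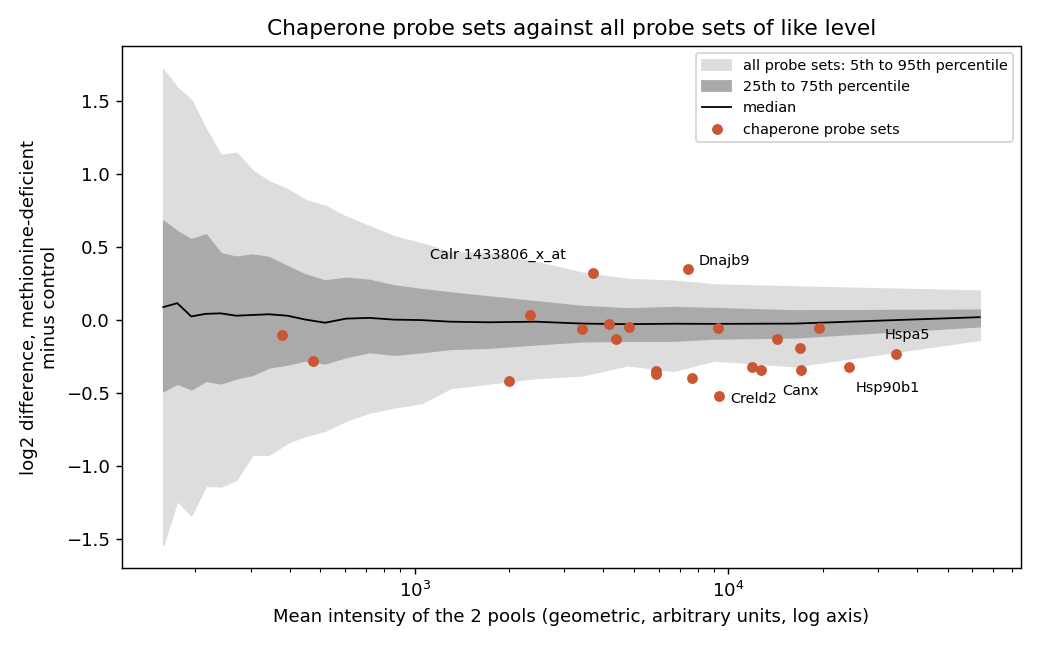
Log2 difference (methionine-deficient minus control) against mean intensity of both pools (log axis) for the 23 chaperone probe sets (orange), over the 5th to 95th percentile (light grey), the 25th to 75th percentile (dark grey) and the median (line) of all probe sets kept. Of the 23 chaperone probe sets, 21 lie in the brightest 20% and 20 lie below 0, with Creld2 the lowest at -0.52 and Dnajb9 the highest at 0.35.

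The list of Hsp70 cofactors and other ER folding factors had more genes lower than higher, by small amounts. It also held genes that are not chaperones, such as calcium-binding proteins of the ER. Of its 36 measured genes 27 were lower, or 75%, where 50% of all genes and 55.3% of those in the brightest 20% were lower. The median log2 difference was -0.17, a sign kept under all 9 alternatives run on this list. With the mean over probe sets the median was -0.10. There were 10 genes at least 1.2-fold lower and 1 at least 1.2-fold higher. All 11848 genes had 23.1% and 25.1%, and the brightest 20% had 316 and 269 of 2864 genes. Rcn1, a calcium-binding protein of the ER, had 914 in control and 563 in methionine-deficient RNA (-0.70, probe-set spread 0.31), and its second probe set was lower as well. Dnajc1, a membrane J-domain protein of the ER, was the single one at least 1.2-fold higher at 0.46, but its 3 probe sets ran from -0.38 to 0.46. Uggt2 (-0.49) and Fkbp14 (-0.47), which serve glycoprotein quality control and proline isomerisation, were dim and within a spread of 0.60.

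By their brightest probe sets, the close relatives measured here gave differences nearer to 0 than the chaperones they are related to. Sdf2, the relative of Sdf2l1, had 4562 in control and 3985 in methionine-deficient RNA (-0.19, just past its spread of 0.18). Creld1, the relative of Creld2, had 586 and 510 (-0.20 beside a spread of 0.46). In the cytosol, Hspa8, the constitutive Hsp70, had 20292 and 19389 in its brightest probe set (-0.066). That was the only lower one of its 4 probe sets, whose range reached up to 1.17. Hsp90aa1 had 16353 and 17265 (0.078). Hsph1, the cytosolic relative of Hyou1, had a log2 difference of -0.073. Clgn and Calr3, the testis relatives of Canx and Calr, did not reach the level filter, and Hsp90ab1 was not analysed here. The 42 measured cytosolic chaperone genes had 23 lower and 19 higher with a median of -0.024, which turned positive with the mean over probe sets. The largest differences there were those of the heat-inducible Hspa1b (-0.80), Dnaja4 (0.75), Hspa14 (-0.73) and Dnajb1 (0.48), and Hspa1b, Dnaja4 and Dnajb1 had probe sets of both signs.

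Mitochondrial chaperones numbered 13, with 7 lower and a median of -0.051. That was 53.8%, where 50% of all genes and 55.3% of those in the brightest 20% were lower. The chaperonin genes Hspe1 and Hspd1, which form the folding chamber of the matrix, had log2 differences of -0.51 and -0.32, while the protease gene Lonp1 had 0.38. The other probe set of Hspe1 had -0.12, within the spread of 0.18, and Hspd1 and Lonp1 each rested on 1 probe set. Hscb had -0.34 with a spread of 0.31. Whether the lists differ was not tested.

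Disulfide isomerases and oxidases, which form and rearrange disulfide bonds of the same clients, numbered 25 measured and had a median of -0.053. Of these 17 were lower, or 68%, where 50% of all genes and 55.3% of those in the brightest 20% were lower. Pdia3, the partner of calnexin and calreticulin, had 7626 in control and 5362 in methionine-deficient RNA (-0.51, probe-set spread 0.18). Pdia4 had -0.41 in its brightest probe set and 0.29 in the other, Tmx2 had 0.35 and -0.49, and Tmx4 had -0.33 and 0.38. Of the 25, 3 were at least 1.2-fold lower and 3 at least 1.2-fold higher. All genes had 23.1% and 25.1%. Most of this list lay in the brightest 20%, which had 316 and 269 of 2864 genes.

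Of the sensors that control chaperone transcription, Atf6 was higher in every probe set, while Ern1 and Eif2ak3 had probe sets of both signs. Atf6 had 2735 in control and 3251 in methionine-deficient RNA (log2 difference 0.25, probe-set spread 0.18), and its 3 probe sets ran from 0.048 to 0.30. Ern1 had 1803 and 3191 in its brightest probe set (0.82) and -0.43 in the other, and Eif2ak3 had 7077 and 8385 (0.24) with other probe sets down to -1.04. The transcription factor gene Xbp1 had 64593 and 63985 (-0.014), and Atf4 had 10457 and 9643 (-0.12). Xbp1 acts after splicing of its mRNA, which the deposited intensities do not separate. Creb3l1 (0.87), Atf6b (0.44) and Creb3l2 (0.43), relatives of Atf6 among membrane-bound transcription factors, had higher values. But Creb3l1 rested on a single dim probe set, with 390 in control and 714 in methionine-deficient RNA and a spread of 0.46. Atf6b lay within its spread of 0.46, and Creb3l2 had probe sets of both signs. Their relatives Creb3 (-0.28, spread 0.18) and Creb3l3 (-0.24, spread 0.46), named after their values were seen, had lower values, with Creb3 lower in all 3 of its probe sets, so the family had no common direction. Over the 19 measured sensors and regulators 10 were lower and 9 higher, with a median of -0.014 that turned positive when scaled to the hybridization controls or without the level filter.

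Genes of ER-associated degradation, which exports misfolded clients to the proteasome, included 15 lower among 23 measured, with a median of -0.069. That was 65.2%, where 50% of all genes and 55.3% of those in the brightest 20% were lower. Ube2j2, a ubiquitin-conjugating enzyme of the ER membrane, had 1467 in control and 3089 in methionine-deficient RNA, 2.10-fold higher, from a single probe set. Man1b1 (-0.97), a mannosidase that marks glycoproteins for degradation, had a spread of 0.77, and Dnajb2 (-0.49) and Nploc4 (-0.31) had spreads of 0.31.

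Beyond the 6 chaperone genes, 31 further genes carried an exact ERSE in their promoter window, and 9 of them were measured above the level filter. Of these, 5 were lower and 4 higher, with a median log2 difference of -0.053. None was at least 1.2-fold lower and 2 were at least 1.2-fold higher, Adcy3 and Spats2l, where all genes had 23.1% and 25.1%. The ER genes among them, named here after their values were seen, were Derl3 (-0.12), Pdia6 (-0.10), Syvn1 (-0.076) and Ero1b (-0.053), all within the probe-set spread of 0.18. Adcy3 (0.72), Spats2l (0.36), Acacb (-0.15) and Pan2 (0.13) had the largest differences, each within its spread. The median turned positive without the level filter. Among the chaperone genes, the 6 with an exact ERSE ranged from -0.52 in Creld2 to -0.055 in Dnajc3 by their brightest probe sets. The 2 with neither element exactly in their window had opposite signs, Sdf2l1 at -0.34 and Dnajb9 at 0.35, and Dnajb11, with ERSE-II alone, had -0.13. Hyou1, which had no promoter to search, had -0.40.

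**Figure D4:**
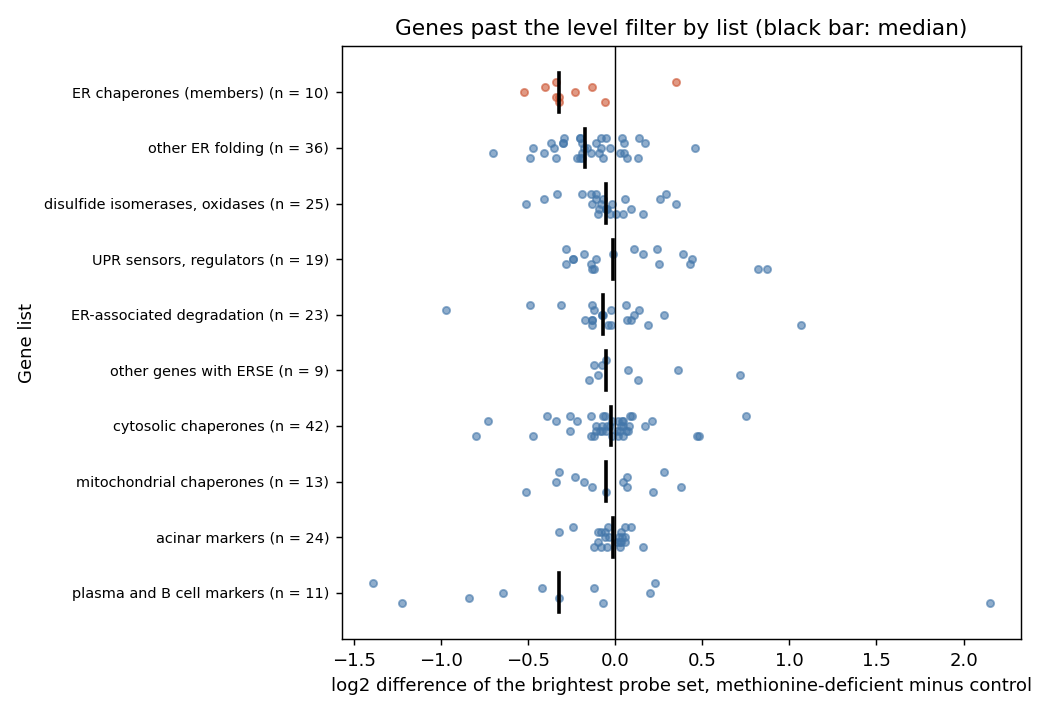
Log2 difference (methionine-deficient minus control) of each gene by its brightest probe set, in 10 lists, with the chaperone genes in orange and the median of each list as a black bar. The chaperone median lies at -0.32, that of other ER folding factors at -0.17 and that of plasma and B cell markers at -0.32, and the other medians drawn lie between -0.069 and -0.013.

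Markers of other cell types also differed between the pools. Among all genes 50% were lower, the share to set beside the counts below. Plasma cells are also rich in ER chaperones, and of the 11 plasma and B cell markers past the level filter (16 had a probe set) 8 were lower, with a median of -0.32 and summed intensities of 26024 in control and 19228 in methionine-deficient RNA. Igha (-1.39), Ighm (-1.22) and Jchain (-0.84) were the lowest, Cd22 the highest (2.15 from a control intensity of 81.3), and no marker probe set was listed at 0. Ighm (5210 and 2243), Jchain (4087 and 2281) and Igha (2159 and 824) made up most of the fall in the sum. The next markers were named after their values were seen. Ms4a1 (-0.64) was lower by more than its spread of 0.46. Within their spreads, Mzb1 (-0.42) and Cd79a (-0.32) were lower, and Sdc1 (0.23) and Cd79b (0.20) higher. Txndc5 and Derl3, which this list shares with the ER lists, had -0.068 and -0.12. Duct markers had a median of 0.19 over 9 genes, which turned negative without the level filter and with a stricter one, macrophage markers had -0.0074 over 11, which turned positive with hybridization control scaling and when all probe sets of a gene were averaged, and endothelial and stromal markers had 0.19 over 12. The macrophage markers had no common direction, with 6 lower and 5 higher. C1qa (1.01), C1qb (0.46, higher in all 3 probe sets) and Fcgr3 (0.74) were higher and Ptprc (-0.58) lower by more than their spreads. The rest, named after their values were seen, lay within their spreads. Tyrobp (-0.24), Cd68 (-0.19), Csf1r (-0.10), Lyz2 (-0.052) and C1qc (-0.0074) were lower, and Mrc1 (0.26) and Adgre1 (0.028) higher. Adipocyte markers had -0.20 over 5, which turned positive with the mean over probe sets. The acinar regulators Ptf1a and Rbpjl had -0.32 and -0.24. Bhlha15, which supports the secretory apparatus of acinar cells, had 0.16 in its brightest probe set and -0.29 in the other. Nr5a2 (0.091, with probe sets of both signs) and Gata4 (0.055), named after their values were seen, were higher within their spreads. The acinar regulators thus had no common direction. The part of these cell types in the chaperone differences was not tested.

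RNA integrity was read from control probe sets at both ends of a transcript. Their 3' to 5' ratio for Actb was 1.46 in control and 1.76 in methionine-deficient RNA, and for Gapdh it was 0.973 and 1.11. Actb had log2 differences of 0.11, -0.26 and -0.16 in its 3', middle and 5' control probe sets and Gapdh -0.13, -0.13 and -0.32, so control probe sets of 1 transcript differed between the pools by amounts like those of the chaperones. The poly-A controls, bacterial transcripts that can be added before labelling, were higher in 23 of 24 probe sets with a median of 0.18. Subtracting that shift moved the median of all probe sets kept to -0.17 and that of the chaperone probe sets to -0.37. The part of RNA integrity and labelling in the chaperone differences was not tested.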

How the data were processed

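Pancreas RNA was read as 1 pool per group on 1 array, made from biotin-labelled cRNA per the labels' protocols. The authors deposited linear intensities for each probe set. How these were background-corrected and scaled is not stated in the labels or the file. Both arrays had a mean of 500 after trimming 2% at each end, which would hide a shift in total RNA. Detection calls were not used here, and the number of arrays limits the precision.

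Probe sets were named from the platform annotation of 2016, updated by gene identifier to RefSeq symbols for 34741 of 34945 with 1 symbol. Values were taken to log2 with a pseudocount of 1. Each gene was read by its brightest probe set past the level filter. The probe-set spread came from neighbouring probe sets of a gene within 5 level bins. The steps were tested on simulated data.

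The members and lists were chosen with earlier results of these data known, and the promoter search was added after seeing the data. Named were all members, their close relatives, pathway regulators and up to 4 genes of each list with the largest difference. Alternatives were 5 scalings, a pseudocount of 16, other level filters, probe sets and fold sizes, and leaving out the gene with the largest difference. Python 3.11.15 with numpy 2.4.6, pandas 2.3.3 and statsmodels 0.14.6 was used.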

Additional observations from a re-analysis of the deposited data

How the results depend on the processing

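The count of lower chaperone genes was 9 of 10 under every scaling, pseudocount and level filter tried, and the lower probe sets numbered 20 or 21 of 23, or 18 of 21 with the stricter level filter. Scaling to the poly-A controls moved the median over probe sets to -0.37 and that over genes to -0.50, as its own construction does to all probe sets. With plain _at probe sets alone, 8 of 10 were lower with a median of -0.08, 2 were at least 1.2-fold lower, and the median over genes was -0.061. The median over genes was -0.17 with the mean over probe sets and -0.10 with the second brightest probe set, which 6 of the 10 genes have, and at 1.5-fold the count of lower probe sets was 0. The cause was not tested. Without Creld2 the median over probe sets was -0.16. Only 1449373_at of Dnajc3 changed sign under a scaling (median centring and poly-A controls). With 3 or 10 level bins, 12 and 13 chaperone probe sets lay beyond the spread. No paired analysis was possible because each group was 1 pool on 1 array, and no replicate could be left out.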
